A study of Homo sapiens with 8 samples.

Results

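WNT signalling in MDA-MB-157 cells was described through 10 genes: the ligands WNT5A and WNT5B, the receptors FZD2, FZD7 and LRP6, the antagonists DKK1 and DKK3, the transducers CTNNB1 and TCF7L2, and the feedback target AXIN2. They were taken by gene symbol from the 21059 genes of the deposited table, and all 10 were found, at means of 9.23 to 188 counts per 1000000 reads (CPM) over the 8 libraries, so no filter on low values removed any of them.

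MDA-MB-157 is an established human breast cancer line without the estrogen receptor, and the labels name no altered gene in either group. After conditioning in low-glucose medium, the cells were plated, washed and held for 48 hours in serum-free medium whose glucose was 5 mM in the 4 libraries of the low glucose group and 25 mM in the 4 of the high glucose group. The question is how transcripts differ under glucose that stands for hyperglycemia. No library with an added osmotic control such as mannitol is among the 8, so a change with glucose and a change with osmolarity cannot be told apart.

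WNT proteins are lipid-bearing secreted ligands that bind Frizzled receptors. With the co-receptor LRP5 or LRP6 they stop a cytoplasmic complex of AXIN, APC, GSK3 and casein kinase 1 from marking beta-catenin for destruction, and beta-catenin then acts with TCF and LEF factors on target genes, among them AXIN2, which feeds back on the pathway. WNT5A and WNT5B mostly act without beta-catenin, on cell shape and movement, and in breast cancer the pathway is known for its part in invasion and in stem-like states.

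The 2 members with the largest changes were DKK1 and WNT5A, both higher at high glucose, and the 250 bases before a RefSeq start of each (GRCh38.p14) are shown for that reason. They were searched on both strands for the TCF/LEF words of 7 letters that begin with CTTTG and end in 2 letters that are each A or T, and capitals mark the matches. The first is chr10:52314031-52314280, plus strand, and the second chr3:55481399-55481648, minus strand. The second lies inside the WNT5A gene (55465715 to 55505263), before an internal start. A further WNT5A window, chr3:55487307-55487556, is not shown and held no match.
DKK1: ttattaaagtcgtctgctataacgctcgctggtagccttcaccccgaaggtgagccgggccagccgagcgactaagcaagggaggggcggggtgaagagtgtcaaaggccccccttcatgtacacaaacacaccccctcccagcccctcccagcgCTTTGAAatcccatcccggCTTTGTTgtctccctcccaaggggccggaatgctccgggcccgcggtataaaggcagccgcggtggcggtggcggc
WNT5A: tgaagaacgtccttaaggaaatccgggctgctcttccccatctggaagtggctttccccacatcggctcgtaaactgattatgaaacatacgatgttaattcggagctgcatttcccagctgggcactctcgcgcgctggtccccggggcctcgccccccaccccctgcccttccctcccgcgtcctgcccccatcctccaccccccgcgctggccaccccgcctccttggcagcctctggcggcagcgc
The DKK1 window held CTTTGAA, 95 to 89 bases before the start, and CTTTGTT, 76 to 70 bases before it, and the WNT5A window held no such word. Of 35116 RefSeq windows of this length, 4199 (11.96%) held at least 1 word and 424 (1.21%) held 2 or more. Windows were at hand for 5 members, 9 windows in all, of which 2 held a word. Besides that of DKK1, it was a TCF7L2 window with CTTTGTT, 133 to 127 bases before the start. This window, chr10:113126383-113126632, lies inside the gene, and the window just before the gene (chr10:112949997-112950246) held no word. FZD2, FZD7, LRP6, AXIN2 and DKK3 were not in the table of windows. A match describes the letters and does not show a site in use.

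The libraries held an estimated 9721648 to 12482546 reads in the table, so 3 reads were worth 0.212 to 0.267 CPM, well below every member. ESR1, which encodes the estrogen receptor, lay between 0 and 0.170 CPM, within the value of 3 reads, and KRT14 and KRT19 were at or near 0. The mesenchymal gene VIM stood at 4060 to 4116 CPM at low and 2856 to 3282 CPM at high glucose. The luminal keratin gene KRT18 stood at 228 to 238 CPM at low and 156 to 196 CPM at high glucose. Of the 31-base words of KRT18, 68.9% also occur in another gene. EPCAM, GATA3 and ZEB1 went the other way. The epithelial marker EPCAM stood at 3.93 to 4.93 CPM at low and 6.58 to 7.62 CPM at high glucose. GATA3, of the same list, stood at 0 to 0.25 CPM and 0.847 to 1.33 CPM. The mesenchymal marker ZEB1 stood at 25.9 to 28.01 CPM at low and 30.99 to 42.7 CPM at high glucose. Of the blood and endothelial markers, PTPRC stayed at or under 0.178 CPM. The 6 in the table summed to 13.2 to 17.4 CPM at low and 16.1 to 20.4 CPM at high glucose. CD68 was the largest part of this sum, at 9.38 to 13.3 CPM at low and 10.4 to 14.3 CPM at high glucose. Of the 31-base words of CD68, 93.1% also occur in another gene. The mean of CD14 went from 1.25 to 4.24 CPM, and PECAM1 was also higher at high glucose. The mean of VWF went from 1.45 to 0.310 CPM, and CDH5 was also lower at high glucose. The test described in the next paragraph was passed by 46.8% of all genes, low ones included. It was passed by 5 of 10 epithelial markers (2 higher, 3 lower), 4 of 5 mesenchymal ones (1 higher, 3 lower) and 4 of 6 blood and endothelial ones (2 higher, 2 lower). In bulk RNA, a shift in the share of cells in one state and a shift in RNA per cell cannot be told apart.

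At high glucose, 8 of the 10 members passed an adjusted p of 0.05 (limma on log2(CPM + 1), Benjamini-Hochberg over all 21059 genes), where 46.8% of all genes did. That share counts low genes too, 856 of them at 0 in every library. With only genes of a mean of at least 1 CPM tested, 9631 of 14372 passed, and again 8 members. WNT5A, WNT5B, FZD7, DKK1 and TCF7L2 were higher, beside 22% of all genes, and FZD2, DKK3 and AXIN2 were lower, beside 24.8% of all genes. LRP6 and CTNNB1 did not pass. The 4 high glucose libraries lay wholly above or wholly below the 4 low glucose libraries for 7 members. This was the case for 44.5% of all genes, low ones included. With a background this high, the number of members that passed says little, and the sizes and directions below are the description of these genes. The median log2 change was 0.08 over the members and -0.01 over all genes tested.

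**Figure D1:**
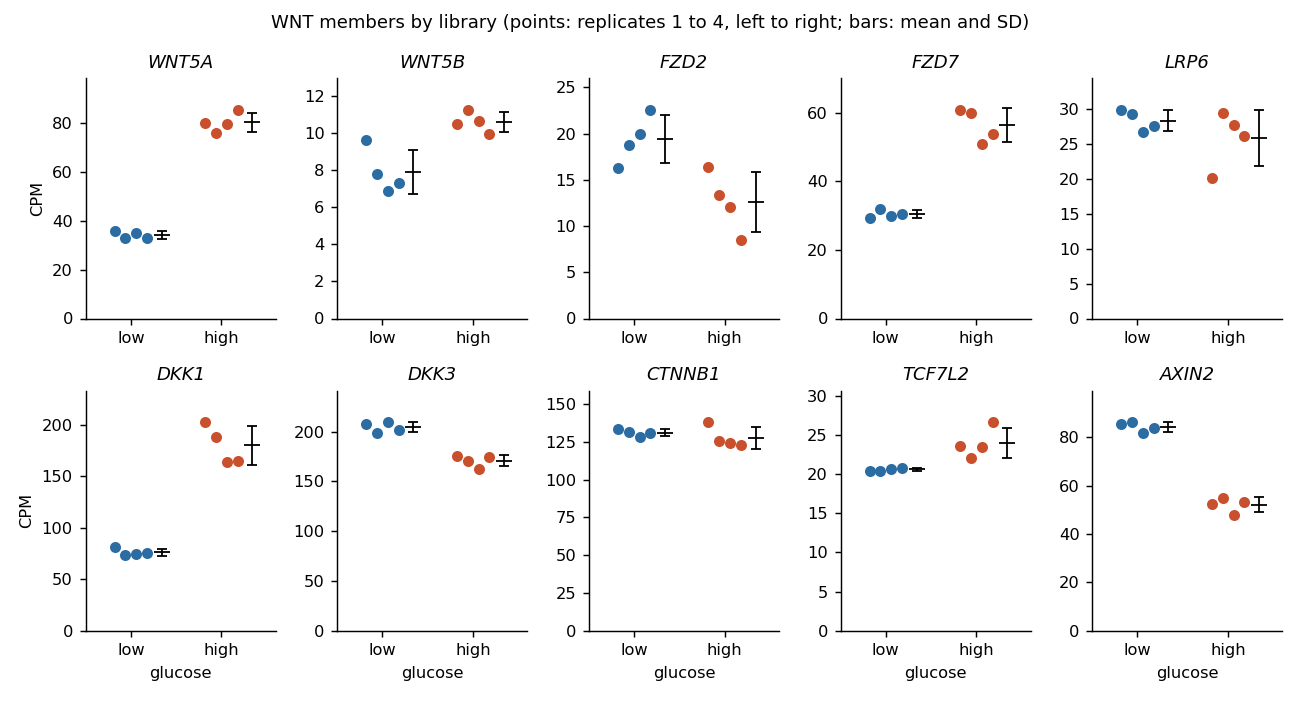
CPM of the 10 WNT members in each library, with low glucose in blue and high glucose in orange. Points are replicates 1 to 4 from left to right and bars give the mean and SD of 4 libraries. WNT5A, WNT5B, FZD7, DKK1 and TCF7L2 sit above their low glucose values in all 4 high glucose libraries, DKK3 and AXIN2 below them, and FZD2, LRP6 and CTNNB1 overlap.

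Of the 2 member ligands, WNT5A (ENSG00000114251.14) had the larger change. It lies on chromosome 3, 55465715 to 55505263, minus strand (RefSeq, GRCh38.p14). In low glucose replicates 1 to 4 its level was 35.8, 32.9, 35.1 and 32.9 CPM, and in high glucose replicates 1 to 4 it was 79.8, 75.7, 79.6 and 85.3 CPM. Every high glucose library was far above every low glucose library. The means were 34.2 ± 1.48 CPM and 80.1 ± 3.95 CPM (SD, n = 4), a ratio of 2.35 and a log2 change of 1.21 ± 0.04 (SE, adjusted p = 2.53e-06). WNT5A-AS1, the antisense gene beside it, was at 0 to 0.167 CPM in all libraries.

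WNT5B (ENSG00000111186.13, chromosome 12, 1617056 to 1647212, plus strand), the closest relative of WNT5A, was less abundant and changed less. It measured 9.59, 7.79, 6.88 and 7.28 CPM at low glucose and 10.4, 11.2, 10.6 and 9.95 CPM at high glucose. The groups did not overlap, but low glucose replicate 1 lay close to the lowest high glucose library. Its mean went from 7.88 ± 1.19 to 10.6 ± 0.531 CPM (SD, n = 4), a log2 change of 0.39 ± 0.10 (SE, adjusted p = 0.0143).

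The balance between the paralogs moved toward WNT5A. Within each library, log2 of (WNT5A + 1) over (WNT5B + 1) was 1.80 to 2.19 at low and 2.65 to 2.98 at high glucose, with no overlap. The difference of the means was 0.82, with an exact 2-sided permutation p of 0.0286 over 70 assignments of the libraries, the smallest that 4 against 4 allows (adjusted over 3 ratios, 0.0286). This ratio, like those of the receptors and antagonists below, combines the changes of both genes and is no separate evidence for either.

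Of the other 12 ligand genes in the table, none exceeded 12.8% of the summed ligand transcripts in any library. Expressed as CPM per kb of the canonical transcript (GENCODE 44), WNT5A made up 21.6% ± 1.12 (SD, n = 4) of that sum at low glucose and 39.8% ± 2.68 at high glucose, with ranges of 20.6% to 22.8% and 37.6% to 43.6%. WNT5B ran from 11.4% to 15.9% at low and from 12.9% to 14.9% at high glucose. WNT3A, a ligand of the beta-catenin branch, held 11.1% ± 1.34 and 4.73% ± 1.13, and WNT6 ran from 7.75% to 10.2% and from 2.78% to 5.32%. The sum over the 14 ligands was 26.9 to 27.3 CPM per kb at low and 33.5 to 36.3 CPM per kb at high glucose. These shares describe the same values and were not tested again.

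Frizzled receptors are the membrane proteins that WNT ligands bind first, and the pair FZD7 and FZD2 went opposite ways. FZD7 (ENSG00000155760.2, chromosome 2, 202033855 to 202038441, plus strand, 1 exon) measured 29.3, 32.1, 30.0 and 30.5 CPM at low glucose and 60.9, 60.1, 50.8 and 53.9 CPM at high glucose. The 4 high glucose libraries were all clearly above, and among them replicates 1 and 2 were the higher pair. Its mean was 30.5 ± 1.16 against 56.4 ± 4.88 CPM (SD, n = 4), a ratio of 1.85 and a log2 change of 0.86 ± 0.06 (SE, adjusted p = 4.01e-05).

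FZD2 (ENSG00000180340.6, chromosome 17, 44557484 to 44561262, plus strand, 1 exon) measured 16.3, 18.8, 19.96 and 22.6 CPM at low glucose and 16.4, 13.3, 12.04 and 8.53 CPM at high glucose. High glucose replicate 1 lay just above low glucose replicate 1, so the groups overlapped, and both groups were spread more widely than those of FZD7. The mean was 19.4 ± 2.60 against 12.6 ± 3.25 CPM (SD, n = 4), a log2 change of -0.61 ± 0.19 (SE, adjusted p = 0.0323). This call was not firm: the adjusted p was 0.0653, 0.0742 and 0.0831 without low glucose replicate 2, 3 or 4, and 0.0547 and 0.0718 without high glucose replicate 2 or 3, while the log2 change stayed between -0.74 and -0.45 over all settings. Of the 31-base words of the FZD2 and FZD7 transcripts, 7.23% and 2.59% also occur in another gene, so a part of their reads may have been split.

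The ratio of these receptors sums up their opposite changes. Within a library, log2 of (FZD2 + 1) over (FZD7 + 1) was -0.81 to -0.42 at low and -2.53 to -1.83 at high glucose, a difference of -1.48 with no overlap (exact 2-sided permutation p = 0.0286, adjusted over 3 ratios 0.0286). Per length, FZD7 made up 22.9% ± 0.676 (SD, n = 4) of the 10 Frizzled transcripts at low and 32.6% ± 1.42 at high glucose. FZD2 went from 17.7% ± 1.86 to 8.78% ± 2.05 of the same sum. FZD4, another Frizzled receptor, held 21.1% ± 0.966 and 28.7% ± 2.69, and FZD6 held 21.8% ± 1.32 and 16.3% ± 0.483. PRSS23 on the other strand overlaps exons of FZD4, and whether their reads were kept apart was not tested. The sum over the family was 27.8 to 30.1 CPM per kb at low and 35.8 to 39.3 CPM per kb at high glucose, and FZD10 was listed at 0 in every library.

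**Figure D2:**
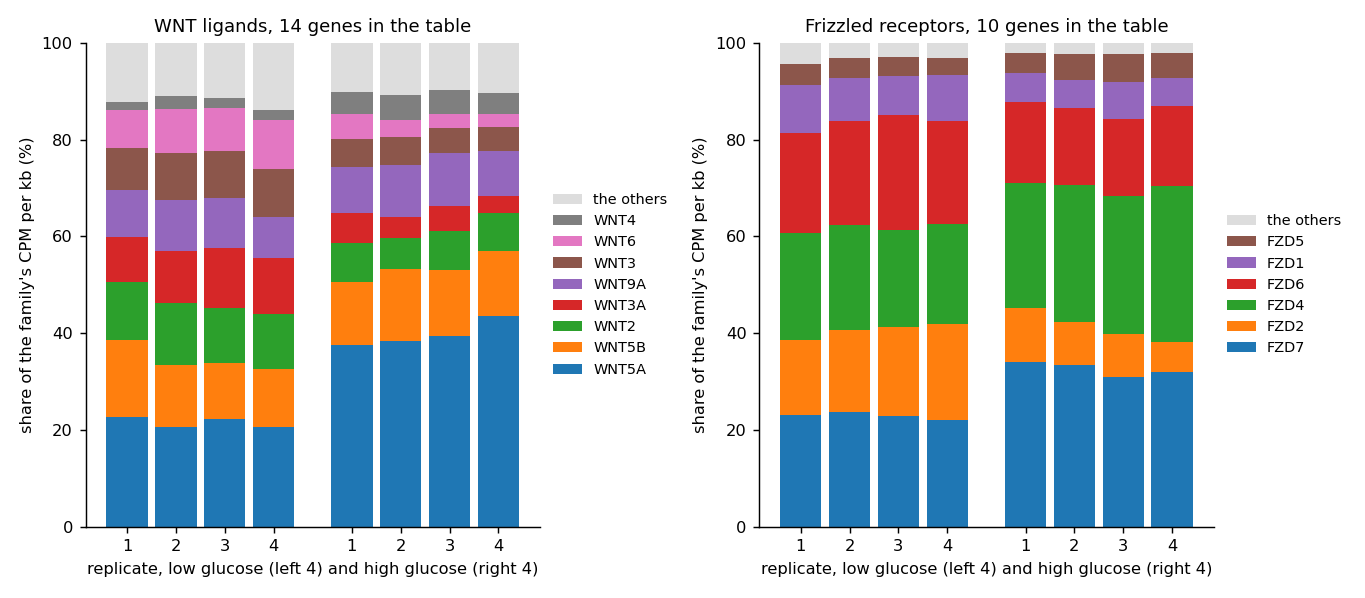
Share of each gene in the summed CPM per kb of transcript of the 14 WNT ligands and of the 10 Frizzled receptors, in percent, 1 bar for each library. WNT5A takes 20.6% to 22.8% of the ligand sum in the low glucose libraries and 37.6% to 43.6% in the high glucose libraries, while FZD2 takes 15.6% to 19.8% and 6.14% to 11.1% of the receptor sum.

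LRP6 (ENSG00000070018.9, chromosome 12, 12116025 to 12267044, minus strand), the co-receptor of the beta-catenin branch and the member with the longest transcript (10252 bases), measured 29.8, 29.2, 26.7 and 27.5 CPM at low glucose. At high glucose it measured 20.1, 29.3, 27.6 and 26.1 CPM. High glucose replicate 1 was lowest of all, and the other 3 lay within or just under the low glucose range. The log2 change was -0.14 ± 0.11 (SE, n = 4 a group, adjusted p = 0.362), and -0.03 without high glucose replicate 1 (adjusted p = 0.709). Across 11223 genes with a mean of at least 5 CPM, the deviation of high glucose replicate 1 from the other 3 had a Spearman correlation of -0.65 with transcript length, against 0.25 to 0.47 in those 3 and -0.13 to 0.06 in the low glucose libraries. With this trend removed from every library, the log2 change of LRP6 was -0.13 (adjusted p = 0.119).

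DKK proteins are secreted, and DKK1 blocks WNT signalling by binding LRP5 and LRP6, whereas DKK3 is the divergent member of the family. DKK1 (ENSG00000107984.10, chromosome 10, 52314281 to 52317657, plus strand), whose upstream window is printed above, measured 81.2, 73.3, 74.6 and 75.8 CPM at low glucose and 202, 188, 164 and 165 CPM at high glucose. The lowest high glucose library was well over the highest low glucose library, and replicates 1 and 2 were the higher pair, as for FZD7. DKK1 has the shortest transcript of the members (1805 bases). High glucose replicate 1 is the library with the length trend described with LRP6. With that trend removed from every library, the log2 change of DKK1 was 1.31 (adjusted p = 9.45e-12). The means were 76.2 ± 3.47 and 179.8 ± 18.7 CPM (SD, n = 4), a ratio of 2.36 and a log2 change of 1.22 ± 0.08 (SE, adjusted p = 1.82e-05). PRKG1-AS1, a gene on the other strand that overlaps its exons, was at 0.171 to 0.595 CPM at low and 0.511 to 0.884 CPM at high glucose, and whether its reads were kept apart from those of DKK1 was not tested.

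DKK3 (ENSG00000050165.17, chromosome 11, 11963036 to 12009745, minus strand) had the highest mean CPM of the members over the 8 libraries, at 208, 198, 210 and 202 CPM at low and 176, 170.3, 163 and 174 CPM at high glucose. All 4 high glucose libraries were below all 4 low glucose libraries, by a small margin. Its mean went from 204 ± 5.19 to 171 ± 5.76 CPM (SD, n = 4), a log2 change of -0.26 ± 0.03 (SE, adjusted p = 0.000403). The spread between replicates was narrow, 2.54% and 3.37% of the mean.

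With one relative higher and the other lower, log2 of (DKK1 + 1) over (DKK3 + 1) went from a range of -1.48 to -1.34 at low glucose to a range of -0.08 to 0.20 at high glucose. The difference was 1.48 (exact 2-sided permutation p = 0.0286, adjusted over 3 ratios 0.0286). DKK1 thus had fewer CPM than DKK3 in every low glucose library and about as many at high glucose, and per kb of transcript it was first among the members there, at 99.6 ± 10.4 CPM per kb against 67.6 ± 2.28 for DKK3 (SD, n = 4).

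CTNNB1 (ENSG00000168036.18, chromosome 3, 41199505 to 41240443, plus strand) encodes beta-catenin, which is controlled chiefly through the stability of the protein, and protein was not measured in this table. It stood at 134, 131, 128 and 131 CPM at low and 138, 125, 124 and 123 CPM at high glucose. High glucose replicate 1 was the highest of the 8 libraries and the other 3 the lowest. The log2 change was -0.04 ± 0.04 (SE, n = 4 a group, adjusted p = 0.474). Without high glucose replicate 1 it was -0.08 and passed (adjusted p = 0.0127), with quantile normalization it was -0.16 and passed (adjusted p = 0.0234), and with median-of-ratios scaling it was 0.0043.

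TCF7L2 (ENSG00000148737.17, chromosome 10, 112950247 to 113167678, plus strand) encodes a TCF factor that carries beta-catenin to DNA. Its level was 20.4, 20.4, 20.7 and 20.8 CPM at low and 23.6, 22.1, 23.5 and 26.7 CPM at high glucose. The low glucose libraries were nearly equal, and each high glucose library was above them. The mean went from 20.6 ± 0.205 to 23.96 ± 1.93 CPM (SD, n = 4), a log2 change of 0.20 ± 0.05 (SE, adjusted p = 0.0176). A gene on the other strand overlaps its exons in the annotation. It was looked up and was not among the genes with values, so its level is not known.

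AXIN2 (ENSG00000168646.13, chromosome 17, 65528563 to 65561648, minus strand), a scaffold of the destruction complex and a widely used readout of beta-catenin signalling, was lower at high glucose. It measured 85.7, 86.3, 81.6 and 83.7 CPM at low glucose and 52.6, 55.1, 47.9 and 53.1 CPM at high glucose. No library of one group came near the other. Its mean went from 84.3 ± 2.11 to 52.2 ± 3.03 CPM (SD, n = 4), a ratio of 0.619 and a log2 change of -0.68 ± 0.04 (SE, adjusted p = 2.14e-05). A readthrough gene on the same strand, AC004805.1, shares exons with it, and 30.7% of the 31-base words of AXIN2 also occur in another gene. AC004805.1 was listed at 0 to 0.489 CPM, and how the reads of the shared exons were split between them is uncertain.

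**Figure D3:**
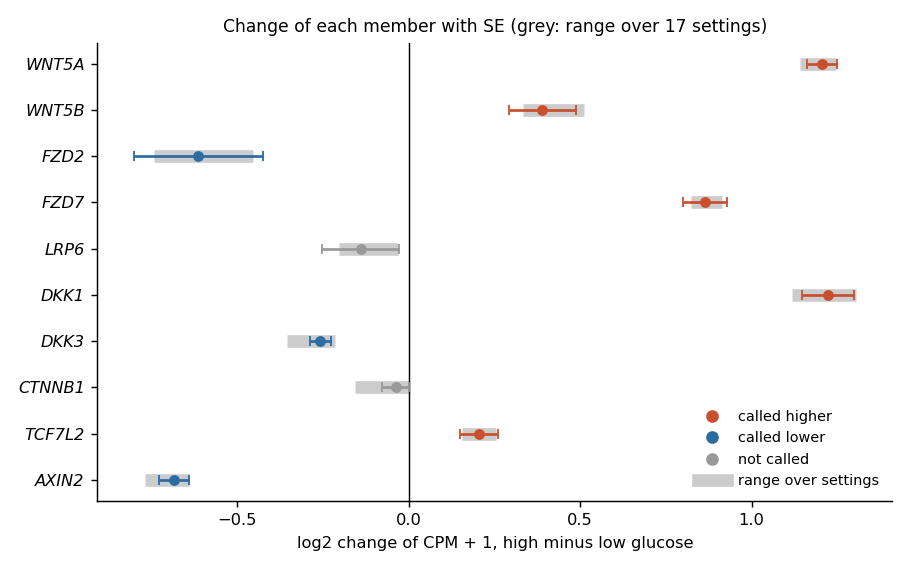
Log2 change of CPM + 1 (high minus low glucose) of each WNT member, with points for the value, bars for the SE and grey for the range over 17 settings of the processing. DKK1 at 1.22 and WNT5A at 1.21 are highest, AXIN2 at -0.68 and FZD2 at -0.61 are lowest, and the grey range of CTNNB1 reaches 0.

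Compared per kb of transcript, the order of levels at low glucose was DKK3, DKK1, CTNNB1, AXIN2, FZD7, WNT5A, FZD2, TCF7L2, WNT5B and LRP6, from 80.9 ± 2.06 down to 2.76 ± 0.145 CPM per kb (SD, n = 4). Libraries of WNT5A and FZD2 overlapped, as did those of FZD2 and TCF7L2, and the other neighbours in this order did not. At high glucose the order was DKK1, DKK3, CTNNB1, WNT5A, FZD7, AXIN2, TCF7L2, WNT5B, FZD2 and LRP6, from 99.6 ± 10.4 down to 2.52 ± 0.391 CPM per kb. Here the pairs WNT5A and FZD7, FZD7 and AXIN2, and FZD2 and LRP6 overlapped. WNT5A and FZD7 both went from below AXIN2, at 5.85 and 6.64 against 19.8 CPM per kb, to about its level, at 13.7 and 12.3 against 12.2 CPM per kb.

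The spread between replicates relative to the mean was wider at high than at low glucose in 9 of the 10 members, WNT5B being the exception. The same share over all genes was not counted, so this cannot be read as particular to the members. At high glucose the SD ran from 3.37% of the mean for DKK3 to 25.8% for FZD2, and at low glucose from 0.995% for TCF7L2 to 15.1% for WNT5B.

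Beyond the members, 118 of 126 listed genes of the WNT pathway were in the table and 99 of them had a mean of at least 1 CPM. The test was passed by 67, or 56.8%, with 33 higher and 34 lower, where 46.8% of all genes passed (22% higher, 24.8% lower). With only genes of a mean of at least 1 CPM tested, 72 of the 99 passed, beside 9631 of 14372 genes. The median log2 change over the 118 was -0.03, beside -0.01 over all genes. Every list had genes that passed in both directions. In 8 of the 9 lists the numbers higher and lower differed by no more than 2, the exception being the cytoplasmic relay. The list medians lay between -0.18 and 0.13 with low genes included. Over genes with a mean of at least 1 CPM, the median of the other TCF target genes was -0.42 (9 genes). The medians of the other lists stayed between -0.18 and 0.13.

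**Figure D4:**
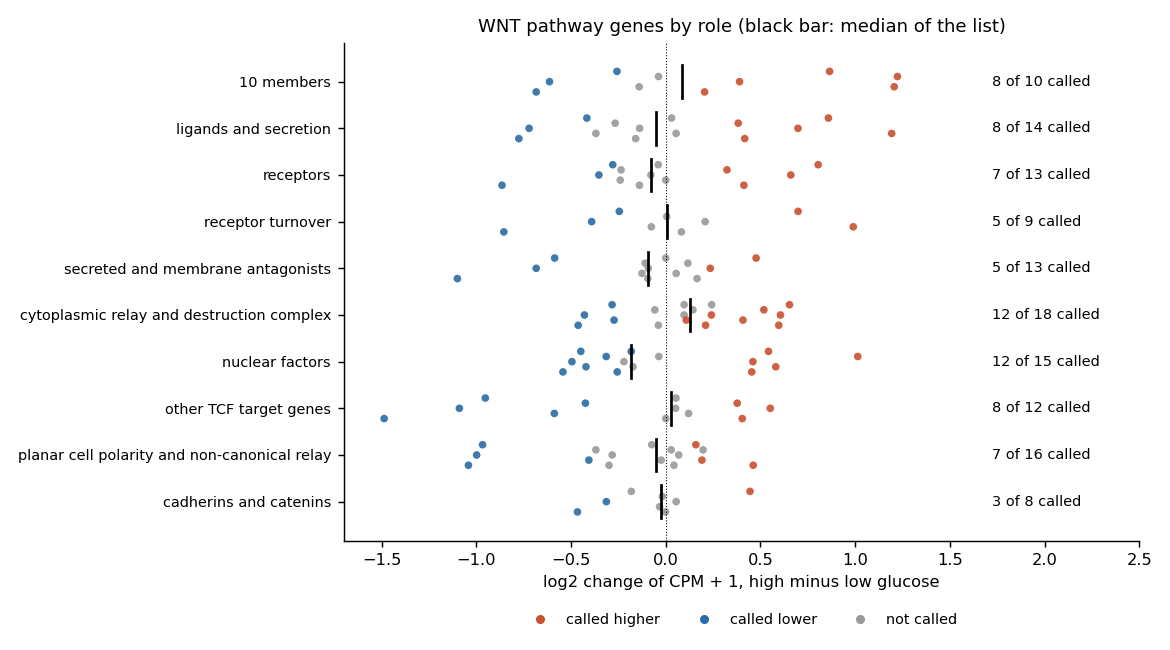
Log2 change of CPM + 1 (high minus low glucose) of each WNT pathway gene in the table, by role, 1 point for each gene. Orange points passed the test as higher, blue as lower, grey did not pass, and black bars are list medians. The medians, low genes included, lie between -0.18 and 0.13, and each list has points on both sides of 0. Over genes with a mean of at least 1 CPM, the median of the other TCF target genes is -0.42.

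Of the other ligand and secretion genes, 8 of 14 passed, 5 higher and 3 lower. WNT4, a ligand of mammary branching, rose by 1.19 on the log2 scale, from 2.28 ± 0.338 to 6.47 ± 0.431 CPM (SD, n = 4, adjusted p = 5.17e-05). WNT3A fell by 0.78 on the log2 scale, from 8.98 ± 1.10 to 4.92 ± 1.36 CPM, and WNT6 fell by 0.72, from 4.19 ± 0.508 to 2.20 ± 0.769 CPM (SD, n = 4), with adjusted p of 0.00911 and 0.0107. WLS, the carrier that brings WNT proteins to the cell surface, was the most abundant of this list and rose by 0.42, from 225 ± 3.54 to 300.2 ± 13.8 CPM (adjusted p = 6.60e-05).

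Among the other receptors, 7 of 13 passed, 4 higher and 3 lower. FZD4 rose by 0.80 and FZD5 by 0.66 on the log2 scale. PTK7, a receptor-like protein of planar cell polarity and the most abundant of this list, fell by 0.86, from 306 ± 7.45 to 168 ± 14.7 CPM (SD, n = 4, adjusted p = 3.41e-05). Genes that set receptor turnover passed in 5 of 9 cases, 2 higher and 3 lower. LGR5, a receptor for R-spondins, rose by 0.99 and ZNRF3, a ligase that removes Frizzled from the surface, by 0.70, while the R-spondin gene RSPO3 fell by 0.85 and LGR4 by 0.25.

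Other antagonists passed in 5 of 13 cases, 2 higher and 3 lower. SFRP2, a secreted protein that binds WNT ligands, fell by 1.10, from 160.3 ± 4.66 to 74.3 ± 3.01 CPM (SD, n = 4, adjusted p = 1.60e-06). SFRP1, its most abundant relative, rose by 0.24 on the log2 scale, from 206 ± 3.33 to 243 ± 7.67 CPM (adjusted p = 0.000317). KREMEN2, a DKK1 receptor, fell by 0.68 and TRABD2A, which cleaves WNT proteins, by 0.59. Thus the secreted antagonists, DKK1 and DKK3 included, went in both directions.

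In the cytoplasmic relay and destruction complex, 12 of 18 genes passed, 8 higher and 4 lower. AXIN1, a relative of AXIN2, rose by 0.65 on the log2 scale, from 22.4 ± 1.31 to 35.8 ± 3.12 CPM (SD, n = 4, adjusted p = 0.000260), where AXIN2 fell by 0.68. TNKS2, a tankyrase that marks AXIN for breakdown, rose by 0.61 and the scaffold APC by 0.60. For APC, with a transcript of 10704 bases, high glucose replicate 1 stood at 73.6 CPM and the other 3 at 96.4 to 109 CPM. That library had the length trend described with LRP6. CSNK1A1, the most abundant of this list, had a log2 change of 0.11 (adjusted p = 0.0431). This call failed without low glucose replicate 2, 3 or 4 or high glucose replicate 1, 2 or 4 (adjusted p of 0.0734 to 0.108). Of the 31-base words of CSNK1A1, 53.0% also occur in another gene.

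Nuclear factors passed in 12 of 15 cases, 5 higher and 7 lower. The co-repressor genes TLE4 and TLE3 rose by 1.01 and 0.58, and TCF7, a relative of TCF7L2, fell by 0.54 on the log2 scale. For CREBBP, a coactivator with a transcript of 10790 bases, high glucose replicate 1 stood at 172 CPM and the other 3 at 251 to 276 CPM. That library had the length trend described with LRP6. CREBBP was the most abundant of this list and had a log2 change of 0.46 (adjusted p = 0.0410). Its call was lost without any 1 of the 4 low glucose libraries or high glucose replicates 2, 3 or 4 (adjusted p of 0.0712 to 0.1003), and without high glucose replicate 1 the log2 change was 0.62 (adjusted p = 7.78e-05).

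In the list of other genes that TCF factors are known to control, 8 of 12 passed, 3 higher and 5 lower. The list does not hold every such gene, and genes of the other lists were not sorted by TCF control. The split therefore describes these 12 genes only. TNFRSF19 fell by 1.49, from 55.1 ± 2.09 to 19.0 ± 0.691 CPM (SD, n = 4, adjusted p = 8.55e-07). DACT1 fell by 1.09 and NKD2, like AXIN2 a feedback inhibitor, by 0.95 on the log2 scale. NKD1, the relative of NKD2, went the other way. It rose by 0.40, from 1.30 ± 0.285 to 2.04 ± 0.378 CPM (adjusted p = 0.0337), with overlapping groups. CCND1, which encodes cyclin D1 and answers to many pathways, rose by 0.55, from 56.4 ± 1.05 to 83.1 ± 2.84 CPM (adjusted p = 8.67e-06), and was the most abundant of this list.

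Genes of planar cell polarity and the relay without beta-catenin passed in 7 of 16 cases, 3 higher and 4 lower. ANKRD6, DAAM2 and INVS fell, with log2 changes of -1.04, -0.998 and -0.97. RAC1, the most abundant of this list, had a log2 change of 0.16 (adjusted p = 0.0448) that did not pass without any 1 of the 4 low glucose libraries or high glucose replicates 2 or 4 (adjusted p of 0.0516 to 0.108). Cadherins and catenins passed in 3 of 8 cases, 1 higher and 2 lower. CDH2, which encodes N-cadherin, rose by 0.44 and CTNND1, which encodes p120 catenin, fell by 0.47. Of the 31-base words of CTNND1, 77.7% also occur in another gene, so how its reads were split is uncertain. JUP, which encodes plakoglobin, a close relative of beta-catenin, had a log2 change of -0.31 (adjusted p = 0.0436) that did not pass when low glucose replicate 2, 3 or 4 or high glucose replicate 2, 3 or 4 was left out (adjusted p of 0.0850 to 0.107).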

How the data were processed

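The authors deposited 1 table of CPM values for the 8 libraries. The submitters' processing notes name hg38 and edgeR, while the study's methods, written for tumors, describe stranded libraries, alignment to hg19 and TMM scaling. The use of strand and the annotation in this table are therefore not settled. Genes on the other strand also overlap exons of other named genes, such as KREMEN2 (PKMYT1) and CCND1 (LTO1). Of its 21077 lines, 18 Y copies identical to X copies were left out. Reads per library were estimated from the smallest step in CPM. Only 72.2% to 74.0% of values under 200 reads came out whole (tolerance 0.01), so counts were not recovered and no count test was run. These depths cover counting error only.

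Groups and replicate numbers came from the labels, which do not say whether replicates were separate experiments, so p-values measure only the spread between these samples. Values were compared as log2(CPM + 1), which understates the change of low genes, with limma 3.58.1 in R 4.3.3 (eBayes with a mean-variance trend, 2-sided), adjusted over 21059 genes. Ratios of paralogs were compared by exact permutation. The members and lists were chosen with earlier results of these data known. Besides the members, each of the 9 other lists is named by the 3 genes with the largest change among those that passed with a mean of at least 1 CPM, and its most abundant gene. FZD6, FZD10, NKD1 and the antisense, other-strand and readthrough genes were named after their values were seen. Positions are from RefSeq GRCh38.p14, matched by symbol. Lengths, overlaps and shared words are from GENCODE 44 mapped to GRCh37 (canonical transcript, Python 3.11.15). Alternatives were a pseudocount of 0.1, a minimum mean of 1 CPM, 3 other scalings, a replicate block, a length correction, no variance trend, and each library left out.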

Additional observations from a re-analysis of the deposited data

Results flagged for a closer look

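A value was singled out where 1 library's gap to the nearest of its group took nearly all of the group's range (Dixon's ratio for 4 values). Of 94 groups of 4 examined, 3 were singled out, where chance gives about 4.7. CTNNB1 in high glucose replicate 1 was at 138 CPM, against 123 to 125 CPM in the other 3, a ratio of 0.837. INVS in high glucose replicate 1 was at 14.5 CPM, against 18.2 to 18.8 CPM in the other 3, a ratio of 0.863. CDH2 in high glucose replicate 4 was at 78.2 CPM, against 74.5 to 74.7 CPM in the other 3, a ratio of 0.943.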

How the results depend on the processing

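Over 16 alternatives, 8 of the 10 members kept their call or lack of one, FZD2 and CTNNB1 being the exceptions, and none of the called members changed direction. Members called numbered 7 to 9, the 118 other pathway genes called 53 to 72, and all genes called 8899 to 10156. Of 544 values of the other 34 named genes, 33 lost the call, all of them in WNT6, CSNK1A1, CREBBP, RAC1 and JUP. The length correction ended the call of CSNK1A1 (adjusted p = 0.0856) and quantile normalization those of CSNK1A1 and CREBBP (0.320 and 0.0932), while median-of-ratios scaling ended that of JUP (0.0629). The cause was not tested.

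No pairing by replicate number was seen: deviations from the group means had correlations of -0.04 to 0.07 between same-numbered libraries. The length trend of the high glucose libraries was not removed first, so a weak pairing could be missed. With the replicate block, 8921 genes and 7 members were called, and FZD2 was not (adjusted p = 0.113), nor were WNT6 (0.0551), CREBBP (0.0543), RAC1 (0.0763) and JUP (0.115). The paired differences of the ratios were 0.82 for WNT5A to WNT5B, -1.48 for FZD2 to FZD7 and 1.48 for DKK1 to DKK3, each in the same direction in 4 of 4 pairs, with an exact p of 0.125, the smallest that 4 pairs allow. Leaving out 1 library gave ranges of 0.75 to 0.88, -1.57 to -1.34 and 1.44 to 1.53. Depth did not limit the members, each far above the value of 3 reads.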
